A study of Mus musculus with 12 samples.

Results

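The miRNAs described are the precursors of miR-143, miR-145 and miR-126, which mark the cells of blood vessels. They were chosen by name as mmu-mir-143, mmu-mir-145a and mmu-mir-126a, 3 of the 589 precursors in the deposited table. The study sequenced small RNA from the cerebral cortex of female mice, 7 weeks old at the start, that drank water or water with 10% (v/v) ethanol for 5 months. The 4 groups were WT (C57BL/6J mice on water), WT + EtOH (C57BL/6J mice on ethanol), TLR4-KO (mice of that background without TLR4, on water) and TLR4-KO + EtOH (TLR4 knockout mice on ethanol). Each group had 3 libraries, and each library was made from a pool of 3 mice, so that the spread between libraries is the spread between pools. The knockout is of the whole animal and was present throughout life. Per the study's methods, the WT mice came from a commercial supplier and the knockouts were provided by another laboratory. Genotype and source of the mice therefore cannot be told apart here. Tlr4 mRNA is not measured in small RNA, and the genotype was not checked here.

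Smooth muscle cells and pericytes, the mural cells around arteries and capillaries, are the main known source of miR-143 and miR-145, which are processed from a common primary transcript and favour the contractile state of smooth muscle. miR-126 is made by endothelial cells, the inner lining of the vessel, from within the gene of the secreted endothelial protein EGFL7, and is known for its part in vascular integrity and in the response to VEGF. In whole cortex such miRNAs stand for a minority of the cells, beside neurons and glia. In bulk tissue, fewer cells of a type and less RNA per cell cannot be told apart.

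The sequences of the miR-126 locus are shown because the table counts both of its strands as separate precursors. Mir126a lies on the plus strand at chr2:26591357-26591429 (GRCm38) inside Egfl7. Of the 9 Egfl7 transcripts of GENCODE M21 that span it, 1 has an exon over it, and in the others it is intronic. Mir126b lies on the minus strand at chr2:26591363-26591420, within the same stretch. In the RefSeq sequences of GRCm38.p6 the hairpin of mmu-mir-126b, 58 bases long, was the exact reverse complement of bases 7 to 64 of that of mmu-mir-126a, 73 bases long. Capitals mark the mature miR-126a-3p in the mmu-mir-126a hairpin, at bases 46 to 67, and the seed, bases 2 to 8, in the mature sequences. The mature miR-126a-5p was missing from the sequences used here and is not shown or marked.
mmu-mir-126a hairpin: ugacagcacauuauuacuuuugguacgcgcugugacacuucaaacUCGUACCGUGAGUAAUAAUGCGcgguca
mmu-miR-126a-3p: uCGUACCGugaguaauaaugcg
mmu-mir-126b hairpin: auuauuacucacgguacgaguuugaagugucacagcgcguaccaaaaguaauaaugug
mmu-miR-126b-5p: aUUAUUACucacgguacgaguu
mmu-miR-126b-3p: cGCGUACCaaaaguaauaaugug
The seed of miR-126a-3p was held by 1 of the 1738 mature sequences of that table, miR-126a-3p itself. The seeds of miR-126b-5p and miR-126b-3p differed from it and were each held by 1 mature sequence too.

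The values are scores with no unit that the authors normalized between libraries, in which the highest value, 135, was the same in every library. Of the 589 precursors, 324 were above 0 in at least 1 library and 190 in all 12. The 3 vascular precursors were above 0 in all 12. mmu-mir-143 was the most abundant of them by value, with a mean of 80.2 ± 2.88 (SD, n = 12) and rank 35 among the 324. mmu-mir-145a followed with a mean of 61.3 ± 4.17 and rank 64, and mmu-mir-126a with 56.8 ± 3.79 and rank 71. The SDs of all 3 were below 4.51, the median SD of the 190 precursors. Whether the scores allow for the length of a precursor is not given in the sources used here, and the ranks compare scores and not molecules. The table holds no reads, so that no counting error stands beside a value, and the read numbers that the study states were not used here.

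mmu-mir-143, the mural marker with the higher value, was highest in WT. Its value was 83.7, 83.3 and 85.2 in the WT libraries and 76.0, 78.8 and 78.0 in the WT + EtOH libraries. In TLR4-KO it was 76.8, 80.6 and 81.1, and in TLR4-KO + EtOH 77.6, 81.1 and 80.6. All 3 WT libraries were above the other 9, and the other groups overlapped each other. The group means ran from 84.0 ± 0.987 (SD, n = 3) in WT through 79.8 ± 1.91 in TLR4-KO + EtOH and 79.5 ± 2.38 in TLR4-KO to 77.6 ± 1.45 in WT + EtOH. Below WT, neighbours in this order differed by less than the larger of their SDs.

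mmu-mir-145a, the partner of miR-143 in the contractile programme of smooth muscle, was lowest in WT. Its value was 52.7, 58.8 and 55.6 in WT and 67.7, 63.5 and 60.2 in WT + EtOH. In TLR4-KO it was 63.5, 62.0 and 62.3, and in TLR4-KO + EtOH 65.6, 63.5 and 60.0. All 3 WT libraries were below the other 9, a pattern opposite to that of mmu-mir-143. The group means were 55.7 ± 3.04 (SD, n = 3) in WT, 62.6 ± 0.785 in TLR4-KO, 63.0 ± 2.85 in TLR4-KO + EtOH and 63.8 ± 3.76 in WT + EtOH, and the last 3 differed by less than the spread of WT + EtOH. mmu-mir-145b, listed under a similar name, was at 0 in every library.

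mmu-mir-126a, the endothelial marker, was highest in WT. Its value was 59.7, 60.7 and 63.0 in WT and 51.1, 55.0 and 57.6 in WT + EtOH. In TLR4-KO it was 52.1, 56.9 and 58.3, and in TLR4-KO + EtOH 52.1, 55.5 and 60.0. The WT libraries were above all those of WT + EtOH and TLR4-KO, while 1 TLR4-KO + EtOH library fell within the WT range, so that 8 of the other 9 libraries were below every WT library. The group means were 61.2 ± 1.68 (SD, n = 3) in WT, 55.8 ± 3.95 in TLR4-KO + EtOH, 55.8 ± 3.28 in TLR4-KO and 54.6 ± 3.31 in WT + EtOH.

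**Figure D1:**
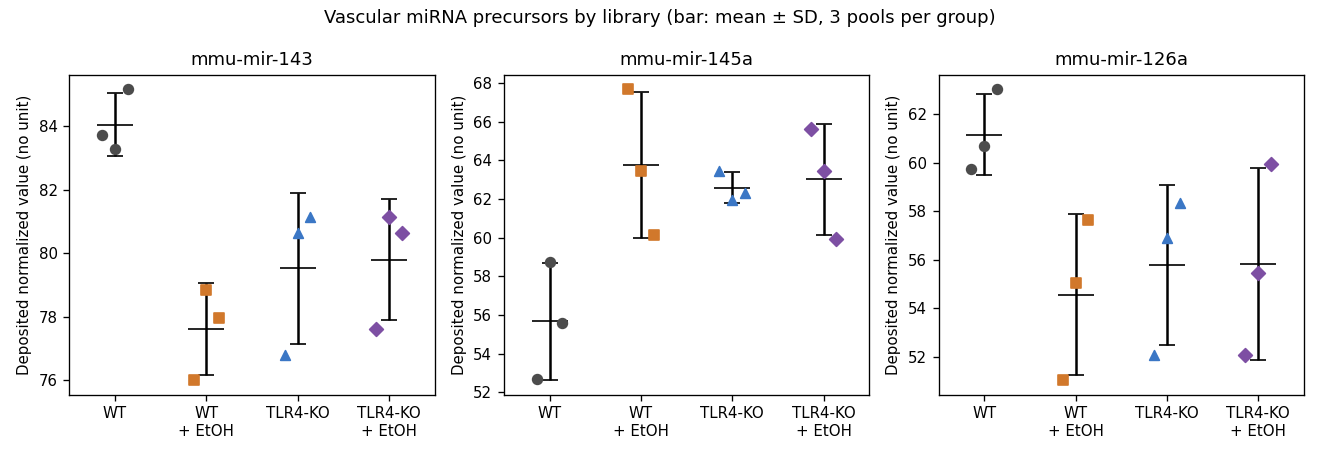
Deposited value (vertical axis, no unit, axis not from 0) of mmu-mir-143, mmu-mir-145a and mmu-mir-126a in each library, with 1 point per library and the mean ± SD of the 3 pools of each group as bars. WT stands above the other 9 libraries for mmu-mir-143 and below them for mmu-mir-145a, while for mmu-mir-126a 1 TLR4-KO + EtOH library reaches into the WT range.

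The strand partner mmu-mir-126b followed mmu-mir-126a from library to library. It was 53.2, 54.7 and 57.6 in WT and 45.7, 50.3 and 53.2 in WT + EtOH. The TLR4-KO libraries had 46.4, 52.7 and 55.0, and those of TLR4-KO + EtOH 47.9, 49.8 and 55.5. Within a library mmu-mir-126a exceeded it by 3.37 to 6.51, and their Pearson correlation over the 12 libraries was 0.970, given as a description. The hairpins printed above are complementary along the whole of mmu-mir-126b, and whether reads were assigned by strand is not given in the sources used here, so that mmu-mir-126b is uncertain as a separate measurement.

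The question of the first comparison was what chronic ethanol changed in mice with TLR4, the innate immune receptor of bacterial lipopolysaccharide that ethanol is known to engage in glia. In WT + EtOH minus WT, mmu-mir-143 differed by −6.45 (SE 1.41, 95% confidence interval −9.68 to −3.22) and mmu-mir-126a by −6.58 (SE 2.54, −12.4 to −0.768). mmu-mir-145a differed by 8.09 (SE 2.27, 2.89 to 13.3). The unadjusted intervals of all 3 lay on 1 side of 0, with the mural pair on opposite sides. None passed the test across all precursors, limma with Benjamini-Hochberg adjustment over 589 precursors and a threshold of 0.05. The adjusted p was 0.0649 for mmu-mir-143, 0.151 for mmu-mir-145a and 0.289 for mmu-mir-126a (limma). This comparison called 10 of 589 precursors, 1.70%.

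The adjusted p of mmu-mir-143 lay close to the threshold and its call depended on the setting. It was 0.0238 without the first TLR4-KO library and 0.0496 with each library centred on its median (limma), against 0.250 at the most with 1 library left out. mmu-mir-143 and mmu-mir-126a also passed in both comparisons with WT when the replicate number was fitted as a block. The libraries of WT and WT + EtOH did not overlap for any of the 3 precursors, and the two-sided exact permutation test gave p = 0.1 for each, the smallest that 3 against 3 allows. Such a separation was common, since 99 of the 324 precursors above 0 in any library, 30.6%, had WT + EtOH and WT libraries that did not overlap, 43 higher and 56 lower in WT + EtOH.

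The next comparison, TLR4-KO against WT on water, shares its WT libraries with the first. mmu-mir-143 differed by −4.53 (SE 1.41, 95% confidence interval −7.75 to −1.30), mmu-mir-126a by −5.37 (SE 2.54, −11.2 to 0.443) and mmu-mir-145a by 6.91 (SE 2.27, 1.71 to 12.1). The adjusted p was 0.169, 0.463 and 0.192 in that order, and none was called (limma), with 15 of 589 precursors called in all, 2.55%. The libraries again did not overlap for any of the 3, with an exact permutation p of 0.1 each, the smallest possible. Of the 324 precursors, 92 did not overlap between TLR4-KO and WT, 28.4%. Against WT, the other 9 libraries as a single set did not overlap for 40 of 324 precursors, 12.3%, among them mmu-mir-143 and mmu-mir-145a but not mmu-mir-126a.

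In mice without TLR4 the 3 precursors stood near the same values with and without ethanol. In TLR4-KO + EtOH minus TLR4-KO, mmu-mir-143 differed by 0.273 (95% confidence interval −2.96 to 3.50), mmu-mir-145a by 0.421 (−4.78 to 5.63) and mmu-mir-126a by 0.0601 (−5.76 to 5.88). Each adjusted p was 1 (limma), and the two-sided exact permutation p was 0.9, 0.9 and 1. These intervals leave out the WT + EtOH minus WT differences of −6.45, 8.09 and −6.58, although the difference between the effects did not pass its own test. The comparison called 2 of 589 precursors, 0.340%, and 36 of 324, 11.1%, did not overlap, none of them vascular members.

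The ethanol groups of both genotypes were also compared. In TLR4-KO + EtOH minus WT + EtOH, mmu-mir-143 differed by 2.199, mmu-mir-145a by −0.759 and mmu-mir-126a by 1.27, each with overlapping libraries and an adjusted p of 1 (limma). The two-sided exact permutation p was 0.3, 0.8 and 0.7. This comparison called 3 of 589 precursors, 0.509%, and 29 of 324, 8.95%, did not overlap.

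The ethanol effects in the 2 genotypes were then set against each other in 1 contrast, the effect in TLR4-KO less the effect in WT. The difference was 6.72 (SE 1.99, 95% confidence interval 2.16 to 11.3) for mmu-mir-143, 6.64 (SE 3.59, −1.58 to 14.9) for mmu-mir-126a and −7.67 (SE 3.21, −15.0 to −0.312) for mmu-mir-145a. The adjusted p was 0.201, 0.601 and 0.361 (limma), so that no member was called to differ in its ethanol effect, and 7 of 589 precursors were, 1.19%.

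Averaged over both genotypes, the ethanol effect was −3.09 for mmu-mir-143, 4.26 for mmu-mir-145a and −3.26 for mmu-mir-126a. The adjusted p was 0.292, 0.398 and 0.837 (limma), and a two-sided exact permutation of the drink within genotypes gave 0.075, 0.07 and 0.15, where the smallest possible p was 0.005. Averaged over both drinks, the genotype effect was −1.16, 3.08 and −2.05 in the same order, with adjusted p of 1, 0.701 and 1 (limma) and exact permutation p of 0.46, 0.16 and 0.345. The mean ethanol effect called 2 of 589 precursors, 0.340%, and the mean genotype effect 8, 1.36%.

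**Figure D2:**
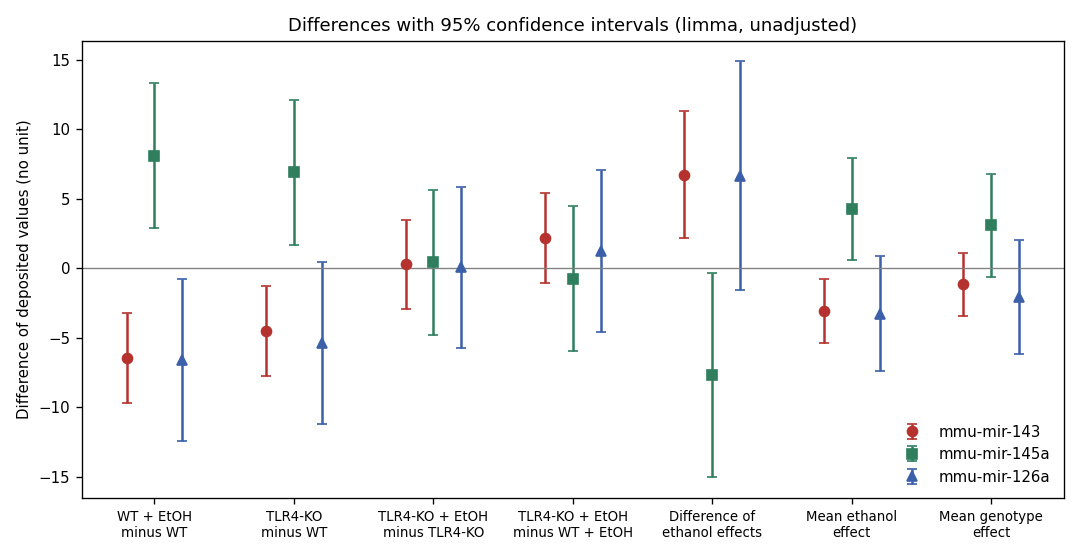
Differences of deposited values (vertical axis, no unit) for the 3 vascular precursors in the 7 contrasts, with 95% confidence intervals from limma, unadjusted. mmu-mir-143 and mmu-mir-126a lie below 0 and mmu-mir-145a above 0 in both comparisons with WT, and all 3 lie near 0 in TLR4-KO + EtOH minus TLR4-KO.

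The gap between both mural precursors was wider in WT than elsewhere. The value of mmu-mir-143 minus that of mmu-mir-145a was 31.0, 24.5 and 29.6 in WT and 8.32, 15.4 and 17.8 in WT + EtOH. It was 13.3, 18.7 and 18.8 in TLR4-KO and 11.997, 17.7 and 20.7 in TLR4-KO + EtOH. Every WT library had a wider gap than any other, with a mean of 28.4 ± 3.42 (SD, n = 3) for WT and 13.8 ± 4.91 for WT + EtOH. In the knockouts the mean was 16.9 ± 3.13 on water and 16.8 ± 4.41 on ethanol. The gap differed by −14.5 in WT + EtOH minus WT and by −11.4 in TLR4-KO minus WT, each with an exact permutation p of 0.1, the smallest possible, and 0.3 after adjustment over 18 tests of gaps. In TLR4-KO + EtOH minus TLR4-KO the gap differed by −0.148 (exact permutation p = 1).

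The gap between mmu-mir-143 and the endothelial mmu-mir-126a moved little. It lay between 20.3 and 25.7 in every library, with group means of 22.9 for WT and 23.0 for WT + EtOH, against 23.7 on water and 24.0 on ethanol in the TLR4 knockouts. Its SD over the 12 libraries was 1.75, less than the SD of either precursor alone. The exact permutation p of its 6 differences ran from 0.4 to 1.

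mmu-mir-145a and mmu-mir-126a changed places. In all 3 WT libraries mmu-mir-145a was below mmu-mir-126a, while outside WT it was above it in 8 of 9 libraries and equal in the other. The mean of mmu-mir-145a minus mmu-mir-126a was −5.47 ± 3.06 (SD, n = 3) for WT and 9.21 ± 7.07 for WT + EtOH, against 6.82 ± 4.00 on water and 7.18 ± 6.80 on ethanol in the TLR4 knockouts. The difference from WT was 14.7 in WT + EtOH and 12.3 in TLR4-KO, each with an exact permutation p of 0.1, the smallest possible, and 0.3 after adjustment.

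Over the 12 libraries mmu-mir-143 and mmu-mir-126a ran together, with Pearson r = 0.897 (permutation p = 1e-04, adjusted over 3 pairs 0.000300) and Spearman rho = 0.858 (permutation p = 0.000650). mmu-mir-145a ran against both, with r = −0.828 for mmu-mir-143 (permutation p = 0.000710) and rho = −0.799 (permutation p = 0.00254). With mmu-mir-126a its r was −0.852 (permutation p = 0.000330, adjusted 0.000495) and its rho −0.924 (permutation p = 5e-05). Without the 2 libraries farthest from the median the r was 0.812, −0.715 and −0.918 in that order. The permutations over the 12 libraries took no account of the groups, so that these p-values include the offset of WT.

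Since WT stood apart, the relations were also taken within the 9 libraries outside WT. There r was 0.792 for mmu-mir-143 and mmu-mir-126a (exact permutation p = 0.0168, adjusted 0.0252, rho 0.751 with p = 0.0245), and 0.808 without the 2 farthest libraries. For mmu-mir-126a and mmu-mir-145a r was −0.890 (exact permutation p = 0.000827, adjusted 0.00248, rho −0.919 with p = 0.00104), and −0.794 without 2. For both mural precursors r was −0.590 (exact permutation p = 0.0962, rho −0.530 with p = 0.147), which did not pass. The group means were also taken off all 12 libraries, permuting within groups. There r was 0.828 for mmu-mir-143 and mmu-mir-126a (permutation p = 0.0135, adjusted 0.0404) and −0.515 for the mural pair (permutation p = 0.0921). For mmu-mir-145a and mmu-mir-126a it was −0.687 (permutation p = 0.0346, adjusted 0.0518). No rho passed in this setting. In the same order rho was 0.671 (permutation p = 0.0658, adjusted 0.0987), −0.427 (permutation p = 0.188) and −0.720 (permutation p = 0.0302, adjusted 0.0906).

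**Figure D3:**
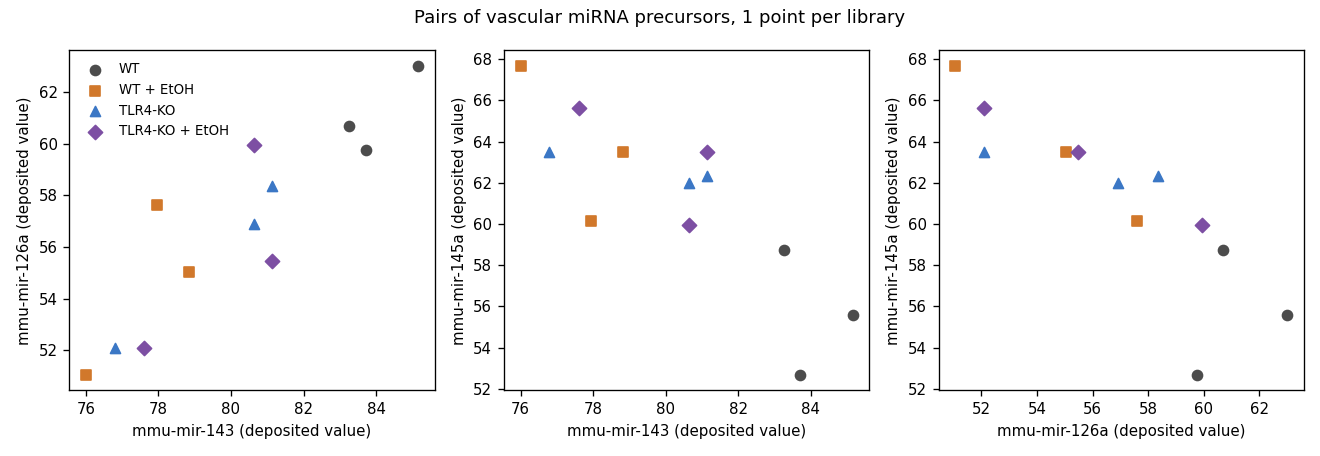
Deposited values (both axes, no unit) of each pair of vascular precursors, 1 point per library, with colour and shape for the group. mmu-mir-126a rises with mmu-mir-143, and mmu-mir-145a falls as either of the others rises, with the WT libraries at the end of high mmu-mir-143 and low mmu-mir-145a.

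The members also moved with the number of precursors above 0 in a library, a measure of how much of the table was detected. This number was 270, 260 and 260 in the WT libraries and 270, 233 and 229 in those of WT + EtOH. The TLR4-KO libraries had 262, 229 and 216, and the TLR4-KO + EtOH libraries 262, 247 and 236. In the library of each group with the most precursors above 0, mmu-mir-126a was at its lowest in 4 of 4 groups, mmu-mir-143 at its lowest in 3 of 4 and mmu-mir-145a at its highest in 3 of 4. That library was replicate 1 in every group, so that the number of precursors above 0 and the replicate number cannot be told apart here. WT had many precursors above 0 and high mmu-mir-126a, which is the reverse of the order within groups. With that number as a covariate, a setting chosen after the data were seen, the differences of WT + EtOH from WT were −8.09 for mmu-mir-143, 9.86 for mmu-mir-145a and −9.71 for mmu-mir-126a, with adjusted p of 0.00150, 0.0331 and 0.00356 (limma). The number is itself read from the values and its part in the result was not tested.

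**Figure D4:**
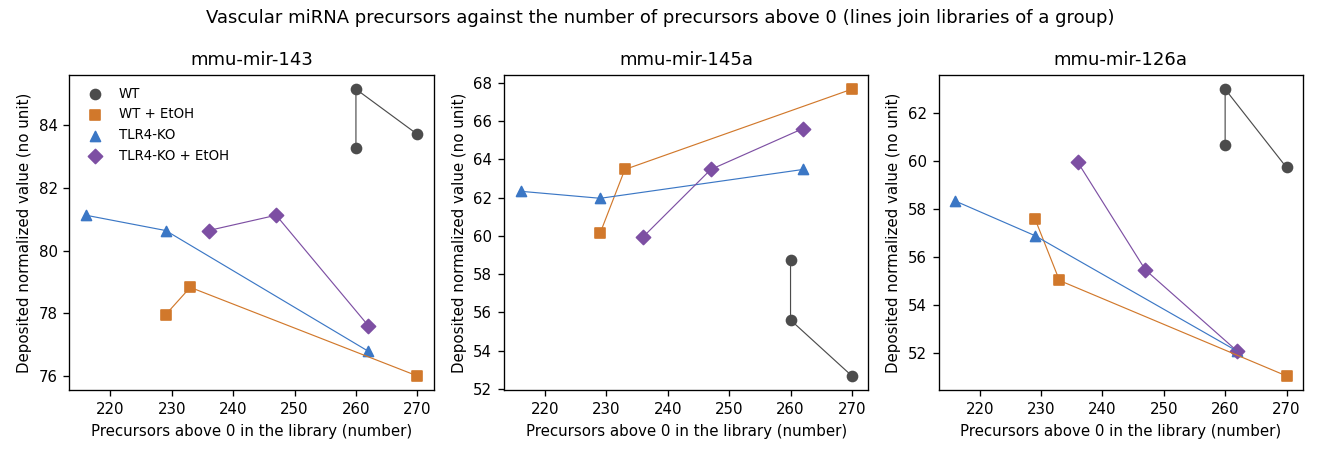
Deposited value (vertical axis, no unit) of each vascular precursor against the number of precursors above 0 in the library (horizontal axis), with lines joining the libraries of a group. Outside WT the library with the most precursors above 0, 262 to 270, has the lowest mmu-mir-143 and mmu-mir-126a and the highest mmu-mir-145a of its group.

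Most of the precursors whose values ran like those of the members over the 12 libraries were in none of the cell type lists. Among the 189 others above 0 in all libraries, mmu-mir-9-1 (r = 0.911), mmu-mir-26b (0.899) and mmu-mir-218-2 (0.894) were most like mmu-mir-143, beside mmu-mir-126a. miR-9 is known from neural progenitors and neurons. The neuron list named neither miR-9 nor miR-218, so that their absence from the lists says nothing of their cell type. mmu-mir-218-1 (0.958), mmu-mir-192 (0.948) and mmu-mir-218-2 (0.942) were most like mmu-mir-126a after mmu-mir-126b. mmu-mir-125a (0.807), mmu-mir-125b-2 (0.803) and mmu-mir-139 (0.797), which is in the endothelial and angiogenic list, were most like mmu-mir-145a, and mmu-mir-218-2 was least like it (−0.950). These are descriptions over libraries that share a normalization.

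Other miRNAs of the vessel wall differed from WT in both directions. Of 24 named precursors of an endothelial and angiogenic list, 22 were in the table and 16 above 0 in any library. In WT + EtOH minus WT none was called, with 7 above and 8 below 0 and a median difference of −0.101, against a median of 0 over all 324. mmu-mir-100, the list's most abundant member with a mean of 80.05, differed by 9.13, and mmu-mir-139, with a mean of 70.0, by 6.43. In TLR4-KO minus WT 1 was called, mmu-mir-27b, a member of the miR-23/27/24 family known for its role in vessel sprouting, which fell by 18.5 (adjusted p = 0.0435, limma) from 18.5 in WT to 0 in all TLR4-KO libraries, and the list's median was 0.0867. mmu-mir-23a, mmu-mir-23b and mmu-mir-27a of that family were at 0 in every library.

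Of the 12 precursors of a mural list of smooth muscle, pericyte and perivascular fibroblast miRNAs, 9 were in the table and 4 above 0. The muscle miRNAs mmu-mir-133a-1 and mmu-mir-133a-2 and the fibroblast miRNAs mmu-mir-199b and mmu-mir-214 were at 0 throughout. None of the 4 was called in either comparison with WT, with medians of −4.43 in WT + EtOH minus WT and 1.69 in TLR4-KO minus WT. Both medians are the differences of mmu-mir-199a-1 and mmu-mir-199a-2, which had the same values as each other. Their mean was low, at 10.6, and they were above 0 in 10 libraries. mmu-mir-21a, the most abundant with a mean of 43.9, averaged 49.97 for WT and 41.8 for WT + EtOH, against 40.6 on water and 43.4 on ethanol in the TLR4 knockouts. mmu-mir-490, next by mean at 12.3 and known from smooth muscle, had differences of the opposite sign. It was listed at 0 in all 3 WT libraries and averaged 18.4 in WT + EtOH, with a difference of 18.4 (adjusted p = 0.120, limma), and 11.2 on water and 19.7 on ethanol in the knockouts, with a difference of 11.2 for TLR4-KO minus WT (adjusted p = 0.387, limma), not called in either.

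Blood left in the vessels is another source of small RNA in cortex. Of 9 blood cell precursors named, 8 were in the table and 7 above 0. mmu-mir-451a, which is specific to red cells, fell by 14.6 in WT + EtOH minus WT (adjusted p = 0.0346, limma) and by 17.6 in TLR4-KO minus WT (adjusted p = 0.00948, limma), from a mean of 48.9 in WT to 34.3 in WT + EtOH, and was 31.3 on water and 28.1 on ethanol in the knockouts. The lymphocyte miRNA mmu-mir-150 rose by 7.41 (adjusted p = 0.0444, limma) and 9.28 (adjusted p = 0.00958, limma). In the same list mmu-mir-142a had the opposite sign, with differences of −2.81 and −11.8, not called in either. mmu-mir-486a, also abundant in red cells, differed by −0.383 and 0.486 and mmu-mir-486b by 8.19 and 8.76. The red cell precursor mmu-mir-144, above 0 in only 3 libraries, differed by 1.20 and −4.13. None of these was called, so that the red cell precursors did not move together. The list's median was 0 in both comparisons, and its mean ranged over 50.5 to 52.9 for WT and 49.8 to 53.7 for WT + EtOH, against 48.7 to 51.3 on water and 46.9 to 50.7 on ethanol in the TLR4 knockouts. The part of blood in the members' differences was not tested.

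In a list of choroid plexus and epithelium miRNAs the mean over the list was highest in WT, through some of its members. Of 15 named, 13 were in the table and 10 above 0, and their mean per library was 37.4 to 41.5 for WT and 22.8 to 32.6 for WT + EtOH, against 26.9 to 31.1 on water and 27.5 to 29.6 on ethanol in the TLR4 knockouts, with no overlap of WT with the rest. The median difference was −13.0 in WT + EtOH minus WT and −11.2 in TLR4-KO minus WT. Of the 10, 1 was called in each comparison, mmu-mir-96 of the miR-183 cluster of sensory and epithelial cells, which fell by 17.0 in both (adjusted p = 0.0128 and 0.00948, limma). It was above 0 in the 3 WT libraries only, so that both differences set the same WT mean against 0. mmu-mir-204, the list's most abundant member and the defining miRNA of choroid plexus, had a mean of 85.3 and differed by 5.12 and 0.623, not called. The largest negative differences were in the miR-183 cluster and the miR-200 family of epithelial cells, with mmu-mir-182 at −30.5 and −36.5, mmu-mir-183 at −22.7 and −31.0, mmu-mir-200b at −22.4 and −15.6 and mmu-mir-200a at −18.0 and −13.4, none of them called. mmu-mir-200b was above 0 in 5 libraries, none of them of WT + EtOH, and mmu-mir-200a in 6 libraries. The other choroid plexus miRNAs differed less in WT + EtOH minus WT, mmu-mir-211 by −3.12 and mmu-mir-34c by −0.768, not called. mmu-mir-34b was at 0 in all libraries of both groups, so that no difference could be seen. In TLR4-KO minus WT they differed by 1.94, −0.355 and 7.96 in that order, not called, with mmu-mir-34b above 0 in only 2 of the 12 libraries. The part of such tissue in the members' differences was not tested.

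**Figure D5:**
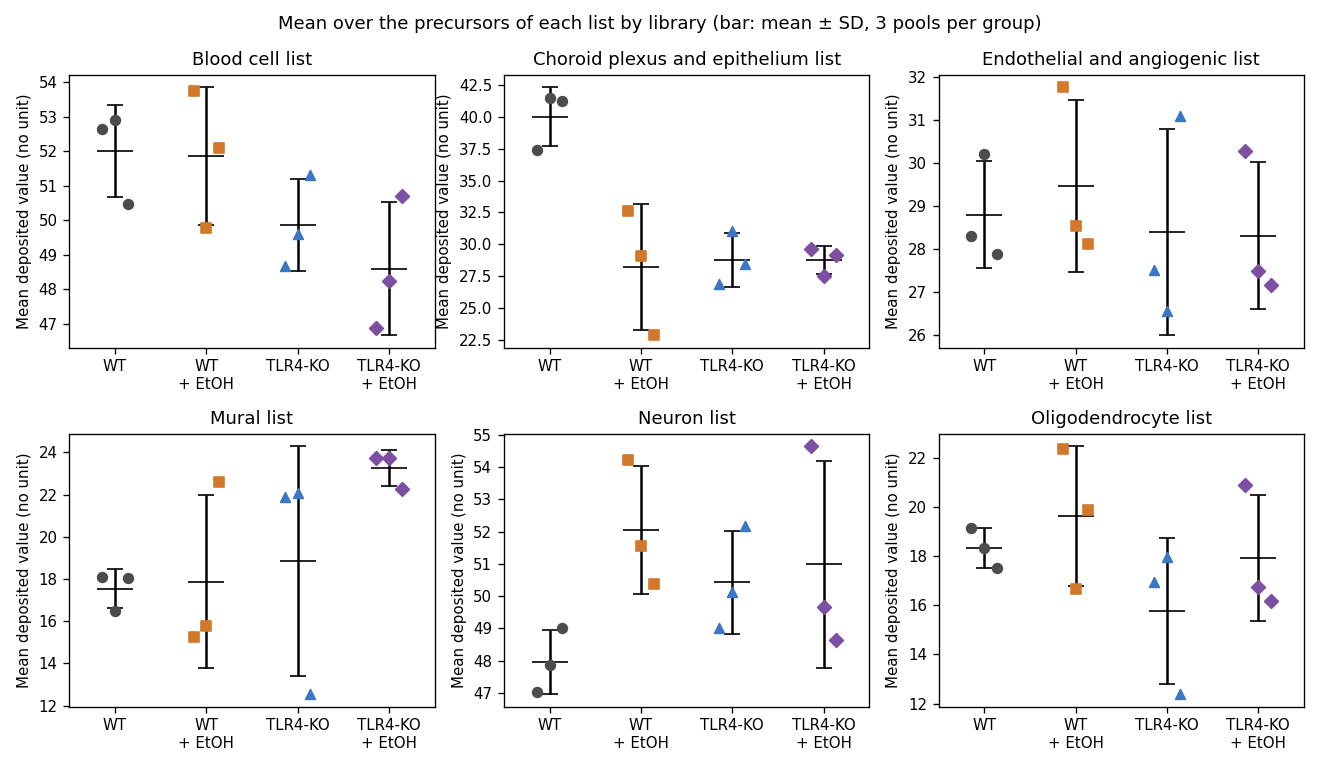
Mean deposited value over the precursors of each of the 6 cell type lists (vertical axis, no unit, axes not from 0), 1 point per library, with the mean ± SD of the 3 pools of each group as bars. WT stands apart in the choroid plexus and epithelium list, at 37.4 to 41.5, and below WT + EtOH in the neuron list, at 47.0 to 49.0 against 50.4 to 54.2.

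Neuronal miRNAs, which define the labelled tissue, were present in all libraries except for mmu-mir-153, which was above 0 in 8 of 12. mmu-mir-138-1 and mmu-mir-138-2, the most abundant of the neuron list, had means of 90.7 and 85.9. All 10 precursors of the list in the table were above 0 in at least 1 library, and none was called in either comparison with WT. The median difference was 3.54 in WT + EtOH minus WT, where 9 of 10 differences were above 0, and 1.86 in TLR4-KO minus WT, where 7 were. The list's mean per library was 47.0 to 49.0 in WT and 50.4 to 54.2 in WT + EtOH, without overlap, and its part in the members' differences was not tested.

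mmu-mir-143 and mmu-mir-145a come from neighbouring hairpins. In GRCm38 both lie on the minus strand of chromosome 18, mmu-mir-143 at chr18:61649196-61649258 and mmu-mir-145a at chr18:61647825-61647894, 1301 bases apart, and outside the annotated exons of Carmn, a long non-coding RNA whose annotated end lies 366 bases from mmu-mir-143. The opposite directions of both precursors were thus measured on hairpins of 1 locus. The scores were set for each library on a common scale, and the part of that scale in the opposite directions was not tested.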

How the data were processed

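Small RNA of pooled mouse cortex was sequenced in 12 libraries, 3 per group. Per the labels and the study's methods, the authors checked reads with FastQC 0.11.6, trimmed them with Cutadapt, mapped them with Bowtie2 2.2.5 and TopHat, with GRCm38 named in the labels, and applied TMM normalization. The deposited values are a score without a stated unit, not whole numbers and drawn from levels that libraries share (the top 14 levels were the same in all), as quantile normalization gives. Whether they are logarithms is not given in the sources used here. They are not counts, and no counting error was given, since the table holds no reads and the read numbers stated by the study were not used here.

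The values were used as deposited in limma 3.58.1 (R 4.3.3) with 4 group means fitted to all 12 libraries and 589 precursors, without covariates, with Benjamini-Hochberg adjustment and a threshold of 0.05 (prior degrees of freedom 0.308, total 8.31). The script was tested on simulated data. Two-sided permutation tests of single values were exact, and those of correlations over 12 libraries used 100000 permutations (Python 3.11.15, numpy 2.4.6, scipy 1.17.1, pandas 2.3.3, matplotlib 3.10.9). Positions came from GENCODE M21. The pools differ in mice, and p-values measure the spread between pools. Alternatives were other centrings, quantile normalization, ranks, a filter on low values, 2 groups only, a replicate block, each library left out and, added after the data were seen, the number of precursors above 0 as a covariate and the relations outside WT.

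The members and the 6 cell type lists were chosen with earlier results of these data known. The text names the members, precursors of the same loci or names, and the 3 most like each member by Pearson r. In each list it names those called and the 2 with the highest mean. Others were chosen after their values were seen. These are the list members at 0, the precursor least like mmu-mir-145a, mmu-mir-142a, mmu-mir-183, mmu-mir-199a-1 and mmu-mir-199a-2. They also include mmu-mir-144, mmu-mir-153, mmu-mir-200a, mmu-mir-200b, mmu-mir-211, mmu-mir-34b and mmu-mir-34c. Sequences at the locus of miR-143 and miR-145 are not reported here.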

Additional observations from a re-analysis of the deposited data

How the results depend on the processing

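No member was called in any comparison as reported, and none changed direction in the comparisons with WT under any alternative. The values come from 3 pools per group without read numbers in the table, and scores cannot be turned into folds. Nothing in the labels says that replicate numbers pair the libraries. Same-numbered libraries of different groups had correlations of their deviations of −0.109 to 0.153 (18 pairs, median 0.113, against −0.0376 for the other pairs), and 6 of 12 libraries correlated best with their own number. In the comparisons with WT some pairs were under 0.1, so that the block was not taken as the design. Even so, within every group mmu-mir-126a was lowest in replicate 1 and highest in replicate 3. The number of precursors above 0 was highest in replicate 1 of every group. What the replicate number stands for is not given in the sources used here, so that a factor shared by same-numbered libraries cannot be told apart. In TLR4-KO + EtOH minus TLR4-KO all 3 pairs were over 0.1 (0.133, 0.101 and 0.153), and there the block gave each member an adjusted p of 1 and called 3 precursors (limma). With a replicate block the difference of mmu-mir-143 was −6.45 in WT + EtOH minus WT (adjusted p = 0.0272, limma) and −4.53 in TLR4-KO minus WT (0.0409), and that of mmu-mir-126a −6.58 (0.0272) and −5.37 (0.0302). The block called 24 precursors in TLR4-KO minus WT and 3 in the difference of the ethanol effects.

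Centred on the median, mmu-mir-143 differed by −6.51 in WT + EtOH minus WT (adjusted p = 0.0496, limma). With the number of precursors above 0 as a covariate, added after the data were seen, mmu-mir-143, mmu-mir-145a and mmu-mir-126a differed by −8.09, 9.86 and −9.71 in WT + EtOH minus WT and by −6.88 (adjusted p = 0.00322, limma), 9.45 (0.0479) and −9.85 (0.00338) in TLR4-KO minus WT. Under the same covariate the difference of the ethanol effects was 9.44 (0.00604) for mmu-mir-143 and 11.8 (0.0109) for mmu-mir-126a, the mean ethanol effect −3.37 (0.0230) and −3.80 (0.0449), and the mean genotype effect −3.94 (0.0383) for mmu-mir-126a, all passing the threshold. The cause was not tested. In TLR4-KO + EtOH minus TLR4-KO, where no member was called, the sign turned with centring on miR-181a and miR-181b to −0.664 for mmu-mir-143, −0.515 for mmu-mir-145a and −0.877 for mmu-mir-126a, with ranks to −0.167 for mmu-mir-126a, and with the covariate to −0.739 for mmu-mir-145a.

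With 1 library left out, WT + EtOH minus WT of mmu-mir-143 was −7.07 to −5.65 (called only without the first TLR4-KO library). TLR4-KO + EtOH minus TLR4-KO was −1.09 to 1.37 for mmu-mir-143, −0.877 to 1.95 for mmu-mir-145a and −2.0001 to 1.94 for mmu-mir-126a. TLR4-KO + EtOH minus WT + EtOH was −2.56 to 1.19 for mmu-mir-145a and −0.789 to 3.15 for mmu-mir-126a. The gap of mmu-mir-143 and mmu-mir-145a in TLR4-KO + EtOH minus TLR4-KO was −2.10 to 2.24. That of mmu-mir-143 and mmu-mir-126a was −0.826 to 1.48 in WT + EtOH minus WT, −0.637 to 1.85 in TLR4-KO + EtOH minus TLR4-KO, −0.416 to 2.56 in TLR4-KO + EtOH minus WT + EtOH and −0.307 to 0.991 in the mean ethanol effect. That of mmu-mir-145a and mmu-mir-126a was −5.36 to 1.68 in TLR4-KO + EtOH minus WT + EtOH and −2.82 to 3.95 in TLR4-KO + EtOH minus TLR4-KO.

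The number of precursors called with 1 library left out was 4 to 18 in WT + EtOH minus WT, 11 to 22 in TLR4-KO minus WT, 0 to 4 in TLR4-KO + EtOH minus TLR4-KO, 0 to 3 between the ethanol groups, 2 to 15 in the difference of the ethanol effects, 2 to 8 in the mean ethanol effect and 2 to 12 in the mean genotype effect. With the covariate it was 59, 63, 4, 6, 58, 25 and 38 in that order. Among precursors above 0 in at least 3 libraries it was 21, 31 and 13 in WT + EtOH minus WT, TLR4-KO minus WT and the difference of the ethanol effects, and 0 in the mean ethanol effect (48 at an unadjusted p under 0.05, limma). Quantile normalization gave 0 in TLR4-KO + EtOH minus TLR4-KO (36 unadjusted, limma), 1 in TLR4-KO + EtOH minus WT + EtOH and 5 in the mean genotype effect. Centring on miR-181a and miR-181b gave 0 in TLR4-KO + EtOH minus TLR4-KO (50 unadjusted, limma), 12 in the difference of the ethanol effects, 0 in the mean ethanol effect (49 unadjusted) and 4 in the mean genotype effect. Ranks gave 8 in the mean ethanol effect and 13 in the mean genotype effect, and fits of 2 groups only gave 0 in both comparisons with TLR4-KO + EtOH (25 unadjusted in each, limma).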

Other observations

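Oligodendrocyte miRNAs, which mark the myelin-forming cells, were also set beside the vascular members. Of 6 named precursors, 4 were in the table and above 0 in any library. mmu-mir-338, a regulator of oligodendrocyte maturation, was the most abundant, with group means of 39.4 for WT and 43.0 for WT + EtOH, against 33.7 on water and 42.2 on ethanol in the TLR4 knockouts. mmu-mir-219b, next by mean at 28.5, averaged 29.4 in WT and 25.7 in WT + EtOH, against 29.3 on water and 29.4 on ethanol in the knockouts. None of the 4 was called in either comparison with WT (limma), with medians of 2.50 in WT + EtOH minus WT and −2.32 in TLR4-KO minus WT.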
